A study of Mus musculus with 12 samples.

Results

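The clustered histone genes of the mouse were followed by RNA sequencing in 2 brain regions, cortex and hippocampus, after cranial irradiation. They were all the gene symbols that begin with *Hist1h*, *Hist2h*, *Hist3h* or *Hist4h*, 68 of the 23183 symbols in the files. Male C57BL/6 mice, bought at 7 weeks of age and acclimatized for 1 week, received a single dose of 10 Gy of X-rays to the whole brain (IR) or were placed on the same platform without irradiation (Con). Both tissues were taken 3 months later. Each of the 4 groups, cortex Con, cortex IR, hippocampus Con and hippocampus IR, held 3 libraries, and all of them came from non-transgenic animals. The study had 10 mice per group, and the labels do not say which mouse gave which library or whether animals were pooled, so p values measure the spread between these libraries.

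Histones are the proteins around which DNA is wound. The core histones H2A, H2B, H3 and H4 form the nucleosome, and the linker histone H1 binds the DNA between nucleosomes. Most genes of the clusters are replication-dependent: they are transcribed in S phase, and their mRNA ends in a conserved stem-loop in place of a poly(A) tail. Some members also give polyadenylated transcripts, which run past the stem-loop or use another end and can be made in cells that no longer divide, such as neurons. A library selected for poly(A) tails therefore holds few replication-dependent histone mRNAs. The methods of the study name poly(A) selection before a directional library kit, and the labels name the kit and total RNA as its input without speaking of the selection.

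A stem-loop, a 6-base stem around a 4-base loop, was found in the annotated transcripts of 46 of the 68 members (GENCODE M21, GRCm38, the same assembly as mm10). It took 8 forms, and the commonest was shared by 26 members of the H1, H2A, H2B and H3 types. The sequences below, with the stem-loop in capitals, belong to *Hist3h2a*, *Hist3h2ba*, *Hist1h1c* and *Hist1h4i*, which were among the 5 members of highest mean level, and to *Hist1h2be*, a lower member whose groups are compared below. *Hist1h4h*, a member whose model ends just after the stem-loop, follows them for comparison.
*Hist3h2a*, chr11:58955172-58955187, plus strand: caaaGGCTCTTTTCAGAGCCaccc
*Hist3h2ba*, chr11:58949349-58949364, plus strand: caaaGGCTCTTTTCAGAGCCacct
*Hist1h1c*, chr13:23739512-23739527, plus strand: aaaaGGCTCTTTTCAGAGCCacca
*Hist1h2be*, chr13:23585531-23585546, minus strand: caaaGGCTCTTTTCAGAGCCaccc
*Hist1h4i*, chr13:22040966-22040981, minus strand: taaaGGCCCTTTTTAGGGCCacca
*Hist1h4h*, chr13:23531458-23531473, plus strand: caaaGGCCCTTTTCAGGGCCgccc

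The annotated transcripts of *Hist3h2a*, *Hist3h2ba*, *Hist1h1c* and *Hist1h4i* go on past this stem-loop for 1643, 169, 840 and 330 bases, against 46 bases in *Hist1h4h*. Near the end of several models lies AATAAA, the usual signal for cleavage and polyadenylation. It was found in the last 40 bases of a transcript in 15 of the 68 members (22.1%), against 64.3% of 21810 other protein-coding genes. By the form of the transcript end it was found in 12 of 24 members with an extended model. Such a model runs at least 100 bases past the stem-loop or holds the stem-loop and is spliced. The signal was also found in 3 of 4 members with no stem-loop but a spliced or long model. None of the 22 members whose model ends at the stem-loop held it, nor did any of the 18 with a short model and no stem-loop. Most of these 18 models stop at or just after the stop codon. A stem-loop or signal past the stop codon could therefore not be found in them, and its absence says nothing about these genes. The signal is shown in capitals for 4 members with a value above 0 in every library.
*Hist3h2a*, chr11:58956797-58956802, plus strand: atatgcccAATAAAataagagt
*Hist3h2ba*, chr11:58949507-58949512, plus strand: atggtattAATAAAtttggttc
*Hist1h1c*, chr13:23740342-23740347, plus strand: atgcttctAATAAAaagcgttt
*Hist2h2be*, chr3:96223717-96223722, plus strand: ttattattAATAAAgttaccga

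The leading H2B gene, *Hist1h2bc* (chr13:23684199-23692908, plus strand), has a spliced model with neither the stem-loop nor AATAAA in its last 40 bases. These are matches of letters in annotated models, and the ends of the RNA in these libraries were not measured here.

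Promoters were also searched, from 250 bases before to 50 bases after the gene start (RefSeq, GRCm38.p6), for 61 members that could be matched. The octamer ATTTGCAT, read on both strands, is a known element of H2B promoters. It was present in 7 of 16 H2B and 7 of 17 H2A promoters, in none of the H1, H3 and H4 promoters, and in 1.92% of 26964 promoters of other genes. Some sites lay between an H2A and an H2B gene read in opposite directions and were counted for both. The site printed below for *Hist1h2bg* is one of them, so the H2A and H2B counts are not independent. CCAAT, the letters of the CCAAT box on both strands, was present in 52 members (85.2%) and in 41.0% of the other promoters. TATAAA was present in 35 members (57.4%) and in 15.6% of the others. The octamer is shown in capitals for 3 members whose values are described below, with *Hist3h2a* read as ATGCAAAT, the other strand of the same octamer.
*Hist3h2a*, chr11:58954566-58954573: ggtaaggcatATGCAAATtaggaaggct
*Hist1h2be*, chr13:23586030-23586037: gtaagacttaATTTGCATaagactgcct
*Hist1h2bg*, chr13:23571341-23571348: tgagtcccttATTTGCATagaacctcta

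The values are FPKM (fragment counts divided by transcript length and by the size of the library), which the authors deposited for each library and which allow levels of different genes to be compared per length. How many reads lie behind them is unknown. Steps between low values put the depth of the libraries at 0.969 to 1.09 times that of cortex Con 1. The tissue labels matched their markers, since *Prox1*, *Dsp* and *Zbtb20* summed to 28.2 to 47.4 FPKM in the hippocampus and to 3.35 to 3.94 in the cortex, and *Rorb*, *Cux2* and *Tbr1* to 72.8 to 87.8 FPKM in the cortex and to 17.6 to 21.9 in the hippocampus. Some libraries stood apart. The sum of 5 choroid plexus markers, led by *Ttr*, was 1061 FPKM in hippocampus Con 2, 1650 in hippocampus IR 1 and 439 in cortex IR 2, against 4.50 to 66.0 in the other 9 libraries. *Alas2*, an enzyme of heme synthesis in red cell precursors, was 22.5 FPKM in hippocampus Con 1 and 0.773 to 1.86 elsewhere. The file headers of the 2 tissues carry different run marks, and tissue and processing run cannot be told apart. Fewer cells of a type and less RNA per cell cannot be told apart in these bulk samples.

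Detection of the clustered histone genes was sparse. A library listed 18 to 37 of the 68 members above 0, with a median of 32.5, which was 26.5% to 54.4% of the members against 73.7% to 75.7% of all genes. At 1 FPKM or more, a library held 9 to 13 members (13.2% to 19.1%), against 55.0% to 55.7% of all genes. Of the 68 members, 13 were above 0 in all 12 libraries, 27 in 4 to 11 libraries and 19 in 1 to 3. The remaining 9 were listed at 0 in every library, among them *Hist1h2aa* and *Hist1h2ba*, which encode histones of the male germ line. The testis linker histone *Hist1h1t* was listed above 0 only in cortex Con 3, at 0.105 FPKM. Hippocampus Con 1 listed the fewest members, 18, and hippocampus Con 2 listed 25, whereas the other 10 libraries listed 30 to 37.

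In 49 members no library reached 1 FPKM, and 6 members reached 5 FPKM or more in at least 1 library. Of the members that stayed under 1 FPKM, 40 had some value above 0, and the smallest nonzero value of such a member had a median of 0.204 FPKM. Of the 141 further values of these members, 104 lay within 0.1 of a whole multiple of the smallest one. Most, but not all, of these values therefore moved in whole steps. With 58 of 68 members sharing at least some 100-base stretches with another member in the annotation, reads could also be split between near-identical copies.

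**Figure D1:**
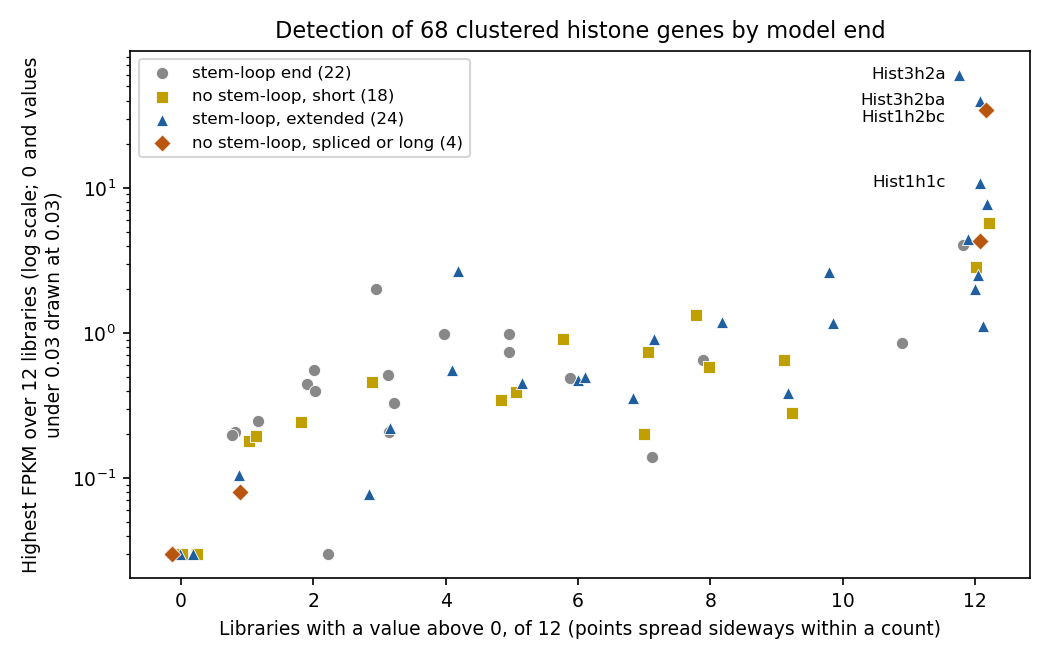
Number of libraries above 0 (horizontal axis, points spread sideways within a count) against the highest FPKM over 12 libraries (vertical axis, log scale, with 0 and values under 0.03 drawn at 0.03) for each of the 68 members. Colour and shape mark the end of the annotated transcript, and the members above 30 FPKM, *Hist3h2a*, *Hist3h2ba* and *Hist1h2bc*, belong to the extended and the spliced or long classes.

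The signal lay in members whose annotated transcripts run past the stem-loop or lack it with a long or spliced model. These 28 members together summed to 87.2 ± 7.19 FPKM in cortex Con, 95.7 ± 7.51 in cortex IR, 113 ± 2.39 in hippocampus Con and 150 ± 5.36 in hippocampus IR (SD, n = 3). They made up 88.7% to 95.3% of the summed FPKM of all members in a library. The 22 members that end at the stem-loop summed to 4.63 ± 1.63, 3.19 ± 1.10, 3.99 ± 0.185 and 4.41 ± 1.76 FPKM in the same order of groups. The 18 short models without a stem-loop summed to 4.56 ± 0.894, 4.72 ± 2.04, 5.67 ± 2.37 and 5.48 ± 0.471 FPKM. Among the extended members the level was uneven, and the median of the highest values of the 24 members was 1.01 FPKM. *Hist4h4*, which is known for a polyadenylated transcript, did not pass 0.498 FPKM in any library.

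A shorter list of 7 members known for polyadenylated transcripts, *Hist1h1c*, *Hist1h2bc*, *Hist1h2be*, *Hist2h2be*, *Hist3h2a*, *Hist3h2ba* and *Hist4h4*, held 77.3% to 87.1% of the summed FPKM in a library. The other 61 members summed to 18.6 ± 4.66 FPKM in cortex Con, 17.3 ± 1.28 in cortex IR, 19.7 ± 3.47 in hippocampus Con and 24.1 ± 4.06 in hippocampus IR (SD, n = 3).

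By histone type, H2B and H2A members led. The 19 H2B members summed to 49.9 ± 4.49 FPKM in cortex Con, 54.4 ± 4.45 in cortex IR, 56.2 ± 6.76 in hippocampus Con and 75.4 ± 5.85 in hippocampus IR (SD, n = 3). The 18 H2A members summed to 26.1 ± 1.87, 29.5 ± 3.13, 44.9 ± 6.12 and 57.0 ± 4.52 FPKM in the same order. The 13 H4 members lay between 7.28 and 21.9 FPKM in sum and the 6 H1 members between 5.20 and 11.6 FPKM. The 12 H3 members were near the floor, from 0 in hippocampus Con 1 to 1.74 FPKM in cortex IR 3, and no H3 member passed the filter described below. The 3 genes of the Hist3 cluster on chromosome 11 alone held 47.5% to 61.8% of the summed FPKM.

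All 68 members together summed to 99.0, 104 and 85.7 FPKM in cortex Con 1 to 3 and to 110, 102 and 98.5 in cortex IR 1 to 3. In the hippocampus the sums were 123, 123 and 122 FPKM in Con and 156, 164 and 162 FPKM in IR. The cortex groups overlapped, and in the hippocampus each IR library lay above each Con library. The sum was 0.0238% to 0.0444% of all FPKM in a library. The 4 highest members, *Hist3h2a*, *Hist3h2ba*, *Hist1h2bc* and *Hist1h1c*, held 73.4% to 83.3% of it.

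**Figure D2:**
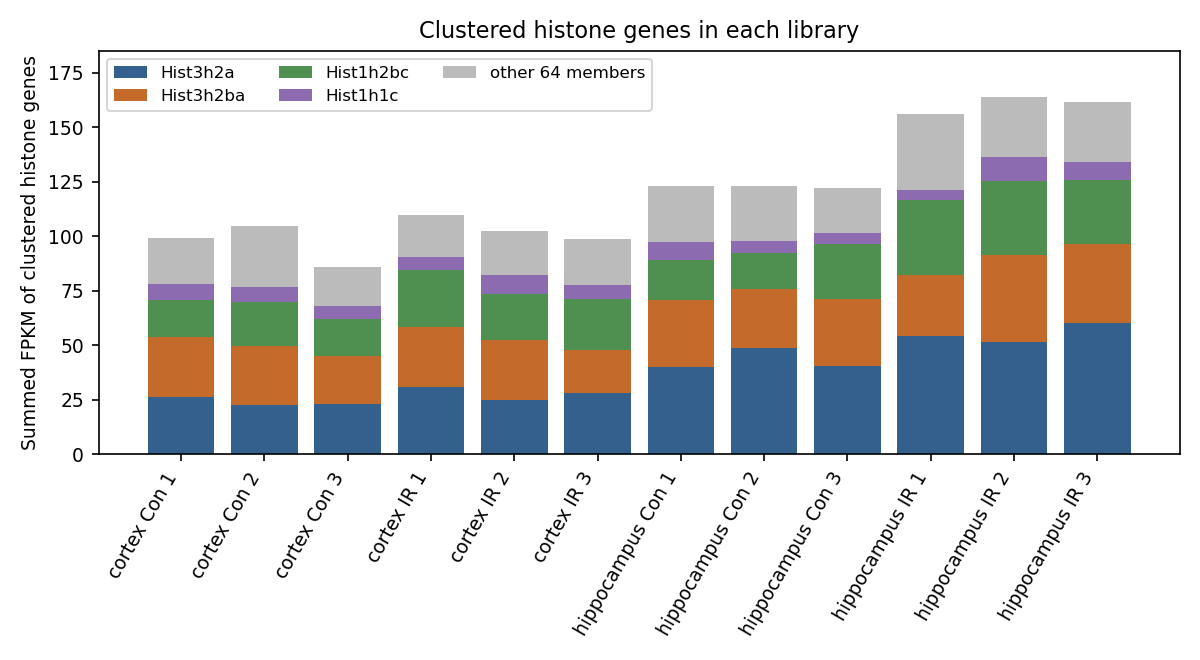
Summed FPKM of the clustered histone genes in each of the 12 libraries, with the 4 highest members in colour and the other 64 in grey. The sums lie between 85.7 and 110 FPKM in the cortex, between 122 and 123 in hippocampus Con and between 156 and 164 in hippocampus IR.

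The levels fell off after a few leading members. *Hist3h2a*, which encodes an H2A of the small cluster on chromosome 11 (chr11:58954685-58956830, plus strand), had the highest mean over 12 libraries, 37.6 FPKM with a range of 22.6 to 60.2. *Hist3h2ba*, an H2B gene of the same cluster (chr11:58948920-58949533, plus strand), followed at 28.6 FPKM (19.5 to 39.8), and its range overlapped that of its neighbours in the order. It had the higher mean of the pair in cortex Con, 25.4 against 24.0 FPKM, within the spread of the libraries. *Hist1h2bc*, an H2B gene of the large cluster on chromosome 13, came next at 23.6 FPKM (16.5 to 34.4). *Hist1h1c*, which encodes a linker histone, followed at 6.997 FPKM (4.50 to 10.9), below the range of the 3 genes above it. The next 7 members had means between 1.08 and 3.62 FPKM, and their ranges overlapped.

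To follow differences between groups, members were tested among all genes that reached 0.5 FPKM in 3 or more of 6 libraries of the tissue compared. The test was limma on log2(FPKM + 1) with Benjamini-Hochberg adjustment over all genes tested. Fold changes from it are therefore on the scale of log2(FPKM + 1), which understates changes of low genes. In the cortex 14 members passed the filter. In the hippocampus 15 did, and *Hist1h2bg* was the one tested only there. The 53 members below the filter had no test. With 3 libraries against 3, an exact permutation test of a single gene could not reach 0.05, so none was run.

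In the cortex no member differed between IR and Con at an adjusted p under 0.05, where 102 of 14065 genes (0.725%) did. Unadjusted, 2 of 14 members had a p under 0.05, against 14.1% of all genes tested, and none was past a fold of 1.5 with such a p, which 0.483% of all genes were. *Hist1h2bc* was 17.2, 20.2 and 17.2 FPKM in Con 1 to 3 and 26.1, 20.9 and 23.5 FPKM in IR 1 to 3. The groups did not overlap, with the lowest IR library just above the highest Con library, and the log2 fold change was 0.35 (SE 0.09, adjusted p = 0.131 from limma). *Hist3h2a* was 26.1, 22.6 and 23.2 FPKM in Con and 30.9, 24.9 and 28.1 FPKM in IR, and here the groups overlapped (log2 fold change 0.21, SE 0.08, adjusted p = 0.298 from limma). *Hist1h2be*, an H2B gene with a spliced model past the stem-loop, was the other of the 14 members tested without overlap and lay lower in IR, where 20.3% of all genes tested did not overlap in either direction. It was 0.676, 1.10 and 0.686 FPKM in Con and 0.645, 0.554 and 0.565 FPKM in IR (log2 fold change -0.19, SE 0.11, adjusted p = 0.496 from limma). Con 2 was the highest Con library, and without it the log2 fold change was -0.083.

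The remaining members showed no call in the cortex. *Hist3h2ba* was 27.5, 27.0 and 21.7 FPKM in Con and 27.3, 27.7 and 19.5 FPKM in IR, a log2 fold change of -0.04 (SE 0.14). *Hist1h1c* was 7.49, 6.92 and 5.91 FPKM in Con and 6.09, 8.83 and 6.18 FPKM in IR, a log2 fold change of 0.04 (SE 0.13). Both genes varied within a group by more than the groups differed. Of the 14 members tested 4 were higher on average in IR, with a median log2 fold change of -0.10, beside 50.5% higher and a median of 0.00162 over all genes tested. Over all 68 members, group means were higher in IR in 24, lower in 30 and 0 in both groups in 14. Of the members that differed 44.4% were higher, beside 48.3% of all genes that differed. The summed FPKM differed by 7.20 FPKM, and *Hist1h2bc* alone differed by 5.33.

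In the hippocampus 3 of the 15 members tested were higher in every IR library than in any Con library, and none passed the adjusted test. Calls were few in this tissue: 4 of 14043 genes (0.0285%) passed an adjusted p under 0.05, and none of the 15 members did. *Hist1h2bc*, *Hist1h2be* and *Hist3h2a* had an unadjusted p under 0.05, 3 of 15 members against 13.9% of all genes tested. The groups did not overlap, with IR higher, in these 3 members and in 10.5% of all genes tested.

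*Hist1h2bc* was 18.6, 16.5 and 25.2 FPKM in hippocampus Con 1 to 3 and 34.4, 33.9 and 29.3 FPKM in IR 1 to 3. Con 3 was the highest of the Con libraries and still below each IR library. Means were 20.1 ± 4.56 in Con against 32.5 ± 2.82 in IR (FPKM, SD, n = 3), and the log2 fold change was 0.69 (SE 0.14, adjusted p = 0.219 from limma). It was the single member past a fold of 1.5 with an unadjusted p under 0.05, a criterion that 0.527% of all genes tested passed. Without hippocampus Con 3 the log2 fold change was 0.86 and the adjusted p = 0.0134 from limma, in a fit in which 861 genes were called in place of 4. A single fit of all 12 libraries gave *Hist1h2bc* an adjusted p = 0.0437 from limma, with 74 genes called. Without the libraries rich in choroid plexus markers, Con 2 and IR 1, the log2 fold change was 0.52 (SE 0.16, adjusted p = 0.858 from limma). Without Con 2 alone it was 0.56 (adjusted p = 0.468 from limma), and no member was then past the fold of 1.5.

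*Hist3h2a* was 39.8, 48.7 and 40.4 FPKM in hippocampus Con and 54.4, 51.6 and 60.2 FPKM in IR, and the means were 42.9 ± 4.97 and 55.4 ± 4.39 (SD, n = 3). The fitted change was 0.36 on the log2 scale (SE 0.10, adjusted p = 0.251, limma). The annotated transcript of *Hist3h2a* overlaps *Trim17* on the same strand, and *Trim17* was listed at 1.55 to 2.51 FPKM over the 12 libraries. *Hist1h2be* was 1.06, 1.20 and 1.03 FPKM in Con and 1.93, 2.00 and 1.55 FPKM in IR, with a log2 fold change of 0.43 (SE 0.10, adjusted p = 0.240 from limma). Its model overlaps that of *Hist1h1e* on the same strand, so reads of the overlap could be given to either gene. *Hist1h1e*, a linker histone gene, was 1.19, 0.209 and 0.934 FPKM in Con and 0.441, 0.577 and 1.61 FPKM in IR, without a direction beyond its spread.

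Markers of the tissue itself were also higher in sum in hippocampus IR. *Prox1*, *Dsp* and *Zbtb20* summed to 28.2, 38.8 and 38.1 FPKM in Con 1 to 3 and to 43.1, 41.3 and 47.4 FPKM in IR 1 to 3. *Prox1*, a marker of dentate granule cells, was 14.4 to 16.7 FPKM in Con and 18.8 to 21.1 FPKM in IR, and was the one of the 3 without overlap. *Dsp* was 5.94 to 12.1 FPKM in Con and 10.2 to 10.98 FPKM in IR, and *Zbtb20* was 7.91 to 12.4 FPKM in Con and 11.7 to 16.8 FPKM in IR. In the cortex the same sum was 3.41 to 3.87 FPKM in Con and 3.35 to 3.94 in IR. The sum of 3 thalamus markers was 12.5 to 17.0 FPKM in hippocampus Con and 15.9 to 24.6 FPKM in IR. The 5 T cell genes in the files were at or near 0, with sums of 0.0465 to 0.887 FPKM in Con and 0.0878 to 0.247 in IR. The part of the makeup of the dissected tissue in the values of *Hist1h2bc*, *Hist3h2a* and *Hist1h2be* was not tested.

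**Figure D3:**
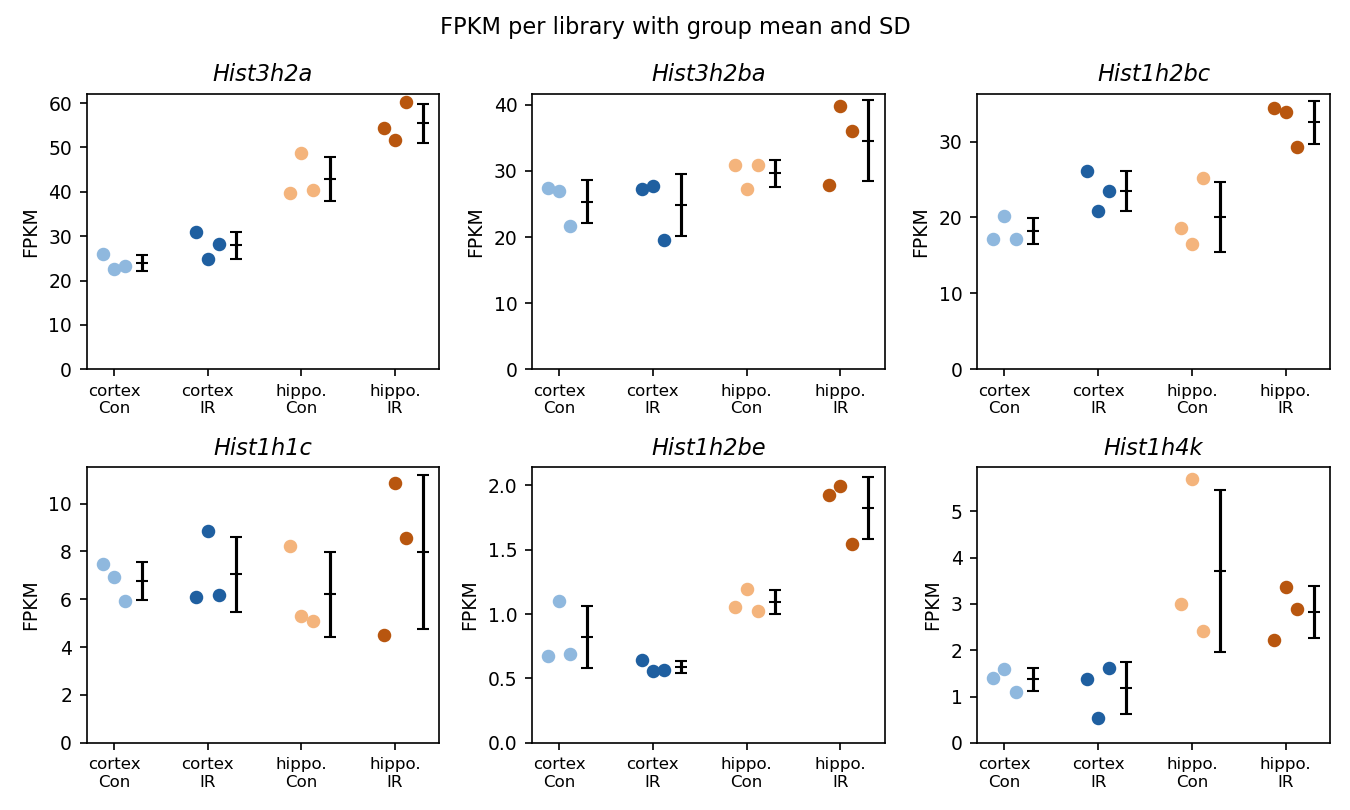
FPKM in each library (points) with the group mean and SD (bars, n = 3) for 6 members in cortex Con, cortex IR, hippocampus Con and hippocampus IR, each panel with an axis from 0. *Hist3h2a*, *Hist1h2bc* and *Hist1h2be* show all hippocampus IR points above the hippocampus Con points, and *Hist1h1c* and *Hist1h4k* show overlap.

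The other members tested in the hippocampus overlapped between groups. *Hist3h2ba* was 30.8, 27.3 and 30.9 FPKM in Con and 27.9, 39.8 and 36.0 FPKM in IR, with IR 1 inside the range of Con (log2 fold change 0.20, SE 0.12, adjusted p = 0.476 from limma). Its log2 fold change was 0.094 without IR 2 and 0.34 without IR 1. *Hist1h1c* was 8.25, 5.29 and 5.09 FPKM in Con and 4.50, 10.9 and 8.55 FPKM in IR, the lowest and the highest value both in IR. *Hist2h2be*, an H2B gene of the cluster on chromosome 3, was 2.49, 2.88 and 3.62 FPKM in Con and 3.56, 3.09 and 4.27 FPKM in IR. Among the H4 genes, *Hist1h4c* was listed at 0, 0 and 0.644 FPKM in Con and at 1.18, 0.749 and 0.349 FPKM in IR, with a log2 fold change of 0.55 (SE 0.24, adjusted p = 0.362 from limma). *Hist1h4i*, *Hist1h4d* and *Hist2h4* had log2 fold changes of 0.29 (SE 0.38), 0.40 (SE 0.38) and 0.38 (SE 0.40), each close to or below its error. Single libraries decided their size. *Hist1h4d* was at 0.037 without IR 2 and 0.82 without IR 3, *Hist2h4* at 0.0055 without Con 3 and 0.88 without Con 1, and *Hist1h4i* at -0.12 without Con 3 and 0.67 without Con 1. *Hist1h4k*, *Hist1h4h*, *Hist1h2bg* and *Hist2h2bb* were the members lower on average in IR, with log2 fold changes between -0.31 and -0.03.

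Of the 15 members tested in the hippocampus 11 were higher on average in IR, with a median log2 fold change of 0.27, beside 47.3% higher and a median of -0.01 over all genes tested. Over all 68 members, means were higher in IR in 34, lower in 20 and 0 in both groups in 14. Of the members that differed 63.0% were higher, beside 47.9% of all genes that differed. Most of the 68 were below the filter and had no test. The summed FPKM was 1.31 times as high in IR. The difference in the sum was 37.7 FPKM, of which *Hist3h2a* and *Hist1h2bc* each gave 12.5 and *Hist3h2ba* 4.88. Without the 4 highest members the sum was 20.3 to 25.7 FPKM in Con and 27.4 to 34.7 FPKM in IR.

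**Figure D4:**
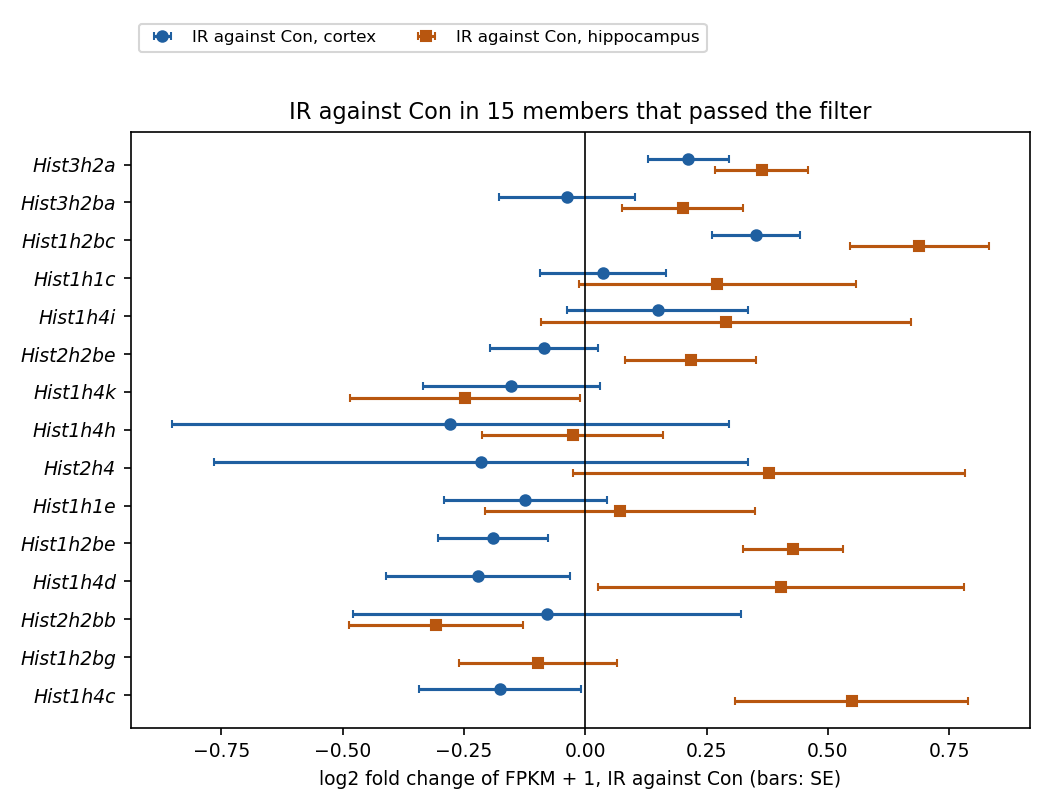
Fitted log2 fold change of FPKM + 1, IR against Con, with its SE for the 15 members that passed the filter, ordered by mean level, in the cortex (circles) and the hippocampus (squares). *Hist1h2bg* was not tested in the cortex. *Hist1h2bc* has the highest value in both tissues (cortex 0.35, hippocampus 0.69), and *Hist1h2be* lies on opposite sides of 0.

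Whether the response differed between the tissues was tested as the interaction of irradiation and tissue over all 12 libraries. No member was called, where 12 of 14459 genes (0.083%) were. *Hist1h2be*, lower in IR in the cortex and higher in the hippocampus, had an interaction of 0.62 on the log2 scale (SE 0.15, adjusted p = 0.201 from limma). *Hist1h4c* followed with 0.72 (SE 0.32, adjusted p = 0.459 from limma). These were the 2 of 15 members with an unadjusted p under 0.05, against 10.4% of all genes tested. For *Hist1h2bc* the interaction was 0.34 (SE 0.19, adjusted p = 0.543 from limma), so its larger fold change in the hippocampus was not separated from that in the cortex. The interaction of this gene was 0.21 without hippocampus Con 2 and 0.50 without hippocampus Con 3, with no call in either fit.

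Between the tissues the clearest difference was that of *Hist3h2a*. It was 24.0 ± 1.85 FPKM in cortex Con and 42.9 ± 4.97 FPKM in hippocampus Con (SD, n = 3), without overlap (log2 fold change 0.81, SE 0.10, adjusted p = 1.53e-05 from limma). *Hist1h4k*, an H4 gene, was 1.40, 1.60 and 1.10 FPKM in cortex Con and 3.00, 5.70 and 2.42 FPKM in hippocampus Con, also higher in each hippocampus library (log2 fold change 0.93, SE 0.24, adjusted p = 0.00743 from limma). In the annotation 64.3% of the 100-base stretches of *Hist1h4k* occur in other members as well, so its reads could be shared with near-identical H4 genes. *Hist1h1e* was 1.76, 2.30 and 1.74 FPKM in cortex Con and lower in the hippocampus (log2 fold change -0.76, SE 0.26, adjusted p = 0.0308 from limma). *Hist1h4d* was 1.39, 2.63 and 1.02 FPKM in cortex Con and 0, 0.473 and 0.671 FPKM in hippocampus Con (log2 fold change -0.94, SE 0.35, adjusted p = 0.0458 from limma). Without the choroid plexus-rich libraries the adjusted p of *Hist1h1e* was 0.129 and that of *Hist1h4d* 0.132 from limma. The call of *Hist1h4d* was also lost with no filter (adjusted p = 0.0560), with a pseudocount of 0.1 (0.116) and with quantile normalization (0.0545, all from limma). With each library left out in turn, *Hist3h2a* and *Hist1h4k* were called in all 12 fits, with adjusted p values from limma of at most 0.000158 and 0.0302. *Hist1h1e* lost its call without cortex Con 1 (adjusted p = 0.0573), cortex Con 2 (0.0951), cortex Con 3 (0.0527) or hippocampus Con 2 (0.128, limma). It was also not called with a replicate block for same-numbered libraries of a treatment group. *Hist1h4d* lost its call in 8 of the 12 fits, those without cortex Con 1 or 2, hippocampus Con 1 or 2, hippocampus IR 1 or any cortex IR library, with adjusted p values from limma up to 0.160.

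These 4 of 15 members, 2 higher and 2 lower in the hippocampus, stood beside 44.2% of 14459 genes called between the tissues, 23.6% higher and 20.6% lower. The share of members was therefore not above that of all genes. *Hist1h4i* was 1.45, 2.47 and 1.97 FPKM in cortex Con and 7.78, 4.44 and 1.94 FPKM in hippocampus Con, and hippocampus Con 3 overlapped the cortex (adjusted p = 0.0775 from limma, and 0.00246 without that library). *Hist3h2ba* and *Hist1h2bc* were not separated between the Con groups, with log2 fold changes of 0.22 (SE 0.15) and 0.12 (SE 0.13).

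In the IR libraries the same contrast called 8 of 15 members, all higher in the hippocampus, beside 41.5% of all genes called and 21.3% called higher. *Hist3h2a* was 28.0 ± 3.03 FPKM in the cortex and 55.4 ± 4.39 FPKM in the hippocampus there (log2 fold change 0.96, SE 0.10, adjusted p = 2.85e-06 from limma). *Hist1h2be* was 0.588 ± 0.0498 FPKM in the cortex and 1.82 ± 0.243 FPKM in the hippocampus (log2 fold change 0.83, SE 0.11, adjusted p = 2.80e-05 from limma). *Hist2h2be*, *Hist1h2bc*, *Hist1h4k*, *Hist1h2bg*, *Hist3h2ba* and *Hist1h4i* were the other members called, with log2 fold changes from 0.45 to 0.97. *Hist1h2bg* entered the test only through its hippocampus libraries, so the filter favoured a higher value there, and its IR groups overlapped between the tissues. The other 7 did not overlap, beside 29.1% of all genes tested that lay higher in the hippocampus without overlap. *Hist3h2a* and *Hist1h4k* were called in both contrasts. That the number called differed between Con and IR was not itself shown by a test, since the interaction called no member.

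Of the 53 members below the filter, the highest single values were 2.67 FPKM for *Hist1h4j* in hippocampus IR 1 and 2.00 FPKM for *Hist1h4m* in cortex Con 1, and each gene was at 0 in most libraries. *Hist3h2bb-ps*, a pseudogene of the Hist3 cluster, was listed at 0 in the 3 hippocampus Con libraries and at 0.782, 0.465 and 1.33 FPKM in the IR libraries. In the cortex it was 0 to 0.662 FPKM in Con and 0.212 to 0.432 FPKM in IR. It was one of 4 members below the filter whose hippocampus IR libraries all lay above the Con libraries, of 39 such members with a value above 0 in that tissue. Of all genes below the filter with a value above 0 there, 4.28% did so. The others, chosen after their values were looked at, were the H3 genes *Hist1h3a* and *Hist1h3d* and the H1 gene *Hist1h1b*. Both H3 genes were listed at 0 in Con, with 0.514, 0.200 and 0.385 FPKM in IR for *Hist1h3a* and 0.170, 0.199 and 0.382 FPKM for *Hist1h3d*. *Hist1h1b* was at most 0.0915 FPKM in Con and 0.0926 to 0.173 FPKM in IR. Values this low were within a few steps of 0 and had no test. *Hist1h2ac*, *Hist1h2bb* and *Hist1h4f* reached at most 1.20, 0.986 and 0.976 FPKM. Together these 53 members summed to 3.68 ± 1.25 FPKM in hippocampus Con and 7.34 ± 2.62 FPKM in hippocampus IR (SD, n = 3). Their sums in the cortex were 5.92 ± 1.18 FPKM in Con and 5.96 ± 0.849 FPKM in IR.

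Genes around the clustered histones were read from lists. Replacement variants are histones encoded outside the clusters by polyadenylated mRNAs and used throughout the cell cycle. Of 11 variant histone genes tested none was called for IR against Con in either tissue. Between the Con tissues 2 were higher and 3 lower in the hippocampus, beside 44.2% of all genes called. *H3f3a*, an H3.3 gene, was 108 ± 3.25 FPKM in cortex Con and 158 ± 19.3 FPKM in hippocampus Con (SD, n = 3), which gave 0.54 on the log2 scale (limma, adjusted p = 9.46e-05). Its level per length was above that of any clustered member. *Cenpa*, the centromeric H3 variant, was lower in the hippocampus by a log2 fold change of -0.56, *H2afy* higher by 0.38 and *H2afy2* lower by -0.40, each with an adjusted p under 0.05.

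Of 13 tested genes for the processing and transcription of histone mRNA, none was called after IR, and 3 were higher and 3 lower in the hippocampus, again beside 44.2% of all genes. *Slbp*, which encodes the protein that binds the stem-loop, was 11.5 FPKM in cortex Con and 8.88 FPKM in hippocampus Con on average (limma, log2 fold change -0.34, adjusted p = 0.00190). *Lsm11*, a subunit of the U7 snRNP that takes part in cleavage after the stem-loop, was 4.87 FPKM in cortex Con and 11.6 FPKM in hippocampus Con (log2 fold change 1.10, adjusted p = 5.02e-08 from limma). *Cstf2* and *Mif4gd* were lower in the hippocampus, with log2 fold changes of -0.37 and -0.32.

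Of 6 tested histone chaperones none was called after IR, and *Atrx* was lower in the hippocampus (log2 fold change -0.25, adjusted p = 0.00689 from limma). *Chaf1a*, a subunit of the chaperone that deposits histones behind the replication fork, was 2.17 FPKM in cortex Con and 1.39 FPKM in cortex IR on average, and 2.79 and 1.78 FPKM in the hippocampus. Its adjusted p values were 0.173 and 0.301 from limma. *Nasp* and *Daxx* had adjusted p values of 0.502 and 0.577 in the hippocampus from limma.

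Of 22 genes of S phase and proliferation, 15 passed the filter in cortical and 14 in hippocampal libraries, with no call after IR. Lower averages in IR were seen in 12 of 15 in the cortex and in 10 of 14 in the hippocampus, with median log2 fold changes of -0.09 and -0.05. That left 3 of 15 and 4 of 14 higher, beside 50.5% and 47.3% of all genes tested. Between the Con tissues 2 were higher and 4 lower in the hippocampus, where 44.2% of all genes were called. *E2f1*, a transcription factor of S phase entry, was lower with a log2 fold change of -1.23 and *Mcm6*, a subunit of the replicative helicase, higher with 1.08 (adjusted p = 6.37e-08 and 9.08e-06 from limma). *Tyms* and *Ccne2* were lower, with -0.64 and -0.56.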

How the data were processed

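RNA of the cortex and hippocampus of male mice was sequenced in 12 libraries, 3 per group. Per the labels and the methods, the authors trimmed reads of 100 bases with FASTX_Trimmer and BBMap, mapped them with TopHat (mm10 per the submitters' processing notes), estimated FPKM with Cufflinks and applied a geometric normalization in edgeR. The deposited FPKM were used as they are. The annotation and the tool versions are not given in the sources used here, and depth in reads is unknown, so counting error is not given. Whether the tables of the 2 tissues were normalized together is not stated.

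Libraries were grouped by their labels. The members, lists and tests were chosen with earlier results of these data known. Genes that reached 0.5 FPKM in 3 or more of 6 libraries of a tissue were transformed to log2(FPKM + 1) and fitted in limma 3.58.1 (R 4.3.3), with variances moderated by trend and a robust prior. IR was compared with Con in each tissue from the 6 libraries of that tissue, and the tissue contrasts and the interaction came from all 12. P values were adjusted by the Benjamini-Hochberg method, and the fit was tested on simulated data.

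Named members were all that passed the filter, the 6 below it with the highest single value, and 3 testis members. Up to 4 genes per other list were named, those called in any comparison by adjusted p and then those with the largest change after IR. *Hist4h4*, *Hist1h1b*, *Hist1h3a*, *Hist1h3d* and, in the closing section, *Hist2h2ab* lie outside this rule and were named after a look at their values.

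Transcript ends came from GENCODE M21 transcripts, to which all 68 members matched. A stem-loop needed at least 5 of 6 stem pairs, and an extended model at least 100 bases after it or a spliced transcript. Bases beyond an annotated transcript were not searched. Promoters were taken from RefSeq. Alternatives were no filter, a minimum of 1 FPKM throughout, a smaller pseudocount (0.1), quantile normalization, no trend or robust prior, a replicate block, a single fit, ratios of group means, each library left out, and, chosen after seeing the data, libraries rich in choroid plexus markers left out. Figures were drawn with matplotlib in Python.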

Additional observations from a re-analysis of the deposited data

Results flagged for a closer look

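*Hist1h2be* stood out because all 3 IR libraries lay below all 3 Con libraries in the cortex and above them in the hippocampus. It was 0.821 ± 0.242 FPKM in cortex Con and 0.588 ± 0.0498 FPKM in cortex IR, and 1.09 ± 0.0915 and 1.82 ± 0.243 FPKM in the hippocampus (SD, n = 3). The difference between the 2 effects was tested as the interaction of irradiation and tissue and was 0.62 on the log2 scale (SE 0.15), which did not pass the adjustment (adjusted p = 0.201 from limma). Leaving out each library in turn gave interactions from 0.51 to 0.69. In the cortex the log2 fold change was -0.19, and without Con 2, the highest of the Con libraries, it was -0.083. The model of *Hist1h2be* overlaps that of *Hist1h1e* on the same strand, and the part of that overlap was not tested.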

How the results depend on the processing

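With all genes above 0 tested and no filter, 24 genes (0.126%) and 1 of 54 members, *Hist2h2ab* (named after its values were seen), were called in the cortex. That gene was at 0 in the 3 Con libraries and at 0.236 to 0.241 FPKM in IR. These IR values are about 1 step above 0, the smallest listed for it (0.243 FPKM scaled for depth), and the call rests on them. Without trend or robust prior 22 genes were called in the cortex. In the hippocampus 2 genes were called with at least 1 FPKM in every library, 74 genes and 1 member in a single fit of all 12 libraries, and 1 gene with the choroid plexus-rich libraries left out. Past a fold of 1.5 with an unadjusted p under 0.05 lay 2 of 54 members with no filter (0.405% of all genes in that fit), 3 of 15 with a pseudocount of 0.1 (1.59%), 2 of 15 with ratios of group means (1.73%) and 0 of 15 without the choroid plexus-rich libraries (0.491%). Between the Con tissues 1 of 6 members was called with at least 1 FPKM in every library (45.5% of all genes) and 2 of 15 without the choroid plexus-rich libraries (34.7%), and 2 were past the fold in both (12.3% and 13.2% of all genes). The IR libraries gave 8 of 15 (41.5%). For the interaction, 7 genes were called with no filter, 19 with at least 1 FPKM in every library, 0 without trend or robust prior and 0 without the choroid plexus-rich libraries, and 4 of 59 and 0 of 6 members were past the fold with no filter and with the 1 FPKM minimum (0.717% and 0.772% of all genes). The cause of these differences was not tested beyond the number of genes and libraries each holds.

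Whether equal library numbers mean the same mouse was not settled. Correlations of deviations between same-numbered cortex and hippocampus libraries of a treatment group, which could share a mouse, ran from -0.083 to 0.17. Those between same-numbered Con and IR libraries of a tissue, which could not, ran from -0.39 to 0.11. Low correlations cannot exclude pairing, since tissues of the same mouse need not vary together across genes. With the library number as a replicate block 1 gene was called in the hippocampus. For the interaction the block left 0 genes called and 1 of 15 members past the fold (1.03% of all genes). In the tissue contrast 3 of 15 members and 42.3% of all genes were called, and *Hist1h1e* had an adjusted p = 0.0845 from limma with the block.

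With the choroid plexus-rich libraries left out, the sign of the log2 fold change in the hippocampus turned for *Hist1h1e* (-0.020), *Hist1h2bg* (0.14) and *Hist1h4k* (0.15).

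Leaving out each library in turn gave 17 to 77 genes called in the cortex, 2 to 861 in the hippocampus, 5348 to 6780 between the Con tissues and 0 to 487 for the interaction, with both 861 and 487 from the fits without hippocampus Con 3. The lowest count in the cortex, 17, came without cortex IR 1. Between the tissues the most members, 6 of 15, were called without hippocampus Con 3, beside 46.9% of all genes. The fewest, 2 of 15, were called without cortex Con 1 or hippocampus Con 2, beside 37.8% and 37% of all genes. In the hippocampus 0 to 1 of 15 members were called, the 1 without Con 3, beside 6.13% of all genes. Members past the fold numbered 0 to 1 of 14 in the cortex and 0 to 3 of 15 in the hippocampus. The shares of all genes were 0.476% to 0.626% and 0.377% to 1.57%. Between the tissues 3 to 6 of 15 were past the fold (13.1% to 15.2% of all genes) and for the interaction 0 to 3 of 15 (0.913% to 2.11%). Some signs turned in these fits. In the cortex the ranges were -0.12 to 0.12 for *Hist1h1c*, -0.32 to 0.043 for *Hist1h1e*, -0.40 to 0.020 for *Hist1h4d*, -0.62 to 0.17 for *Hist1h4h*, -0.061 to 0.29 for *Hist1h4i*, -0.30 to 0.078 for *Hist1h4k*, -0.54 to 0.20 for *Hist2h2bb*, -0.18 to 0.0071 for *Hist2h2be*, -0.80 to 0.077 for *Hist2h4* and -0.14 to 0.12 for *Hist3h2ba*. In the hippocampus they were -0.19 to 0.24 for *Hist1h1e*, -0.22 to 0.083 for *Hist1h2bg*, -0.17 to 0.18 for *Hist1h4h*, -0.12 to 0.67 for *Hist1h4i* and -0.45 to 0.038 for *Hist1h4k*, and between the Con tissues -0.051 to 0.24 for *Hist1h2bc*. The sums of the extended, spliced or long models ran from 84.4 to 91.3, 92.5 to 99.8, 112 to 114 and 149 to 154 FPKM in cortex Con, cortex IR, hippocampus Con and hippocampus IR.

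For members with extended, spliced or long models, the sum without the highest member was 63.2, 67.7, 70.0 and 95.0 FPKM in cortex Con, cortex IR, hippocampus Con and hippocampus IR, the list of known polyadenylated members gave 77.8, 86.3, 103 and 136 FPKM, and the median member was at 0.247, 0.311, 0.0729 and 0.422 FPKM. For the others the median was 0 in all 4 groups, the members outside that list summed to 18.6, 17.3, 19.7 and 24.1 FPKM, and without the highest member the sums were 5.96 in hippocampus Con and 7.07 in hippocampus IR. At 0.5 and 1 FPKM or more, the median library held 16 and 11 members. Depth in reads is unknown, and it limits the members under 1 FPKM, most of whose values above 0 move in whole steps.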
